A study of Mus musculus with 16 samples.

Results

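The genes described here encode the mitochondrial ribosomal proteins. They were taken as every gene in the count data whose mouse symbol is Mrpl or Mrps followed by a number, and genes named as pseudogenes were left out. Of 25006 gene identifiers, 78 met this rule, 49 with an Mrpl and 29 with an Mrps symbol. The rule itself uses no measured value, but it was set with earlier results of these data known. All 78 passed the filter on low counts, and the lowest raw count of any of them in any mouse was 126.

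Mitochondria carry their own ribosome, which translates only the few mRNAs encoded by mitochondrial DNA, all of them for subunits of the oxidative phosphorylation (OXPHOS) complexes. Its rRNAs come from mitochondrial DNA, whereas every one of its proteins is encoded in the nucleus, made on cytosolic ribosomes and imported. The large subunit, built from proteins named Mrpl, forms the peptide bond, and the small subunit, built from proteins named Mrps, reads the mRNA. Some of these proteins have a bacterial counterpart and others are found only in mitochondria. Dopaminergic neurons of the substantia nigra pars compacta (SNc) are autonomous pacemakers with a high demand for mitochondrial ATP.

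The RiboTag method was used to collect the mRNA: chosen cells make a ribosomal protein with a tag, and the ribosomes are pulled down by this tag together with their mRNA. A Cre-dependent AAV9 vector with the EF1a promoter, coding for Rpl22l1 with Myc and DDK tags and for tdTomato, was injected into the SNc. The control mice (DAT-Cre +/-) numbered 8, as did the MCU-KO mice, which were DAT-Cre+/- and MCU fl/fl. All 16 mice were p45, tissue was taken 30 days after the injection, and each mouse gave 1 library. In the MCU-KO mice the mitochondrial calcium uniporter gene, Mcu, was floxed, and the comparison of genotypes asks what its loss does to mRNA in these neurons. In both genotypes Cre was driven by the dopamine transporter gene, so the tag and the deletion depended on the same driver. Controls came from crosses of DAT-Cre with C57/BL6 mice and not from MCU fl/fl litters, so that genotype and cross cannot be told apart. The tagged ribosomes are cytosolic, and the mRNAs for mitochondrial ribosomal proteins are their cargo, whereas the mitochondrial ribosome itself carries no tag.

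Library totals ranged from 18999107 to 22016362 counts in 15 of the mice and reached 14129527 in MCU-KO mouse 8. Normalized counts of Mcu were between 120 and 828 in control, with a median of 401, and between 5.82 and 410.1 in MCU-KO, with a median of 246. Only 3 MCU-KO mice were below the lowest control, and the log2 fold change of -1.19 did not pass the test (unadjusted p = 0.0569, adjusted p = 1.00, quasi-likelihood test of edgeR). The dopaminergic markers Th and Slc6a3 were at 114253 ± 16933 and 62800 ± 10384 normalized counts (SD, n = 8) in control and at 109826 ± 23963 and 56626 ± 13912 in MCU-KO. Markers of other cells were present as well: the summed level of 7 oligodendrocyte markers was 2825 to 5624 CPM (counts relative to the library total) in control and 3355 to 6722 in MCU-KO, and that of 7 astrocyte markers was 752 to 1336 and 885 to 1499.5. The median mouse was at 3846 CPM in control and 4197 in MCU-KO for the oligodendrocyte sum. For the astrocyte sum it was lower in MCU-KO, at 1139 in control and 1037 in MCU-KO. The fitted level was higher in MCU-KO for 6 of 7 oligodendrocyte, 5 of 7 astrocyte and 5 of 7 microglia markers, with median log2 fold changes of 0.15, 0.31 and 0.30. A lower fitted level was found for 6 of 10 dopaminergic, 3 of 3 endothelial and 1 of 3 GABAergic markers. Their median log2 fold changes were -0.03, -0.66 and 0.18. Of the 37 markers of 6 cell types, 0 had an adjusted p under 0.05, and their part in the results below was not tested. In such pooled mRNA, fewer cells of a type and less RNA per cell cannot be told apart.

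The mRNAs for mitochondrial ribosomal proteins were abundant, and their levels per kb differed widely between genes. To compare genes, normalized counts (counts divided by a size factor for each library) were divided by the length of the gene's exons in kb. On this scale, the median member was at 861 in control, the lowest at 99.0 and the highest at 6859.6, a 69.3-fold range. The middle part of the members, between the quartiles, spanned 4.80-fold. Without division by length, control means ran from 467 for Mrps36 to 6837 for Mrpl20, a 14.7-fold range. Of the 78 members, 77 were above 106 per kb, the median of the 12390 genes tested.

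At the top stood 4 genes of the large subunit. Mrpl41 (chr2:24974117-24975098 of GRCm38, minus strand), which exists only in mitochondria, had 6859.6 ± 1071 normalized counts per kb in control (SD, n = 8). It was followed by Mrpl54, a protein of the stalk region, with 5232 ± 573. Mrpl34, the counterpart of a bacterial ribosomal protein, reached 4783 ± 759.5. Mrpl20, which also has a bacterial counterpart, was at 4109 ± 356. In this order the control mice of each neighbouring pair of genes overlapped.

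The lowest levels belonged to Mrps35, Mrps22 and Mrps9 of the small subunit and to Mrpl1 of the large subunit. They were at 99.0 ± 33.2, 139 ± 102, 143 ± 50.5 and 148 ± 64.3 normalized counts per kb in control (SD, n = 8), and the 4 did not differ beyond their spread. Of these genes, Mrps22 varied most from mouse to mouse. In control, it ranged from 122 to 1389 normalized counts, with a median of 433. The coefficient of variation over control mice (SD divided by the mean) was 73.1% for Mrps22, 47.3% for Mrpl44 and 45.1% for Mrpl47, the 3 largest among the members. It was 8.67% for Mrpl20, 8.85% for Mrpl51 and 9.24% for Mrpl27, the 3 smallest. Of the 50-base stretches of Mrpl47 and Mrpl27, 23.3% and 26.9% also occur in other genes. The median coefficient of variation over the members was 18.8%, against 42.6% over all genes tested, most of which had lower counts.

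**Figure D1:**
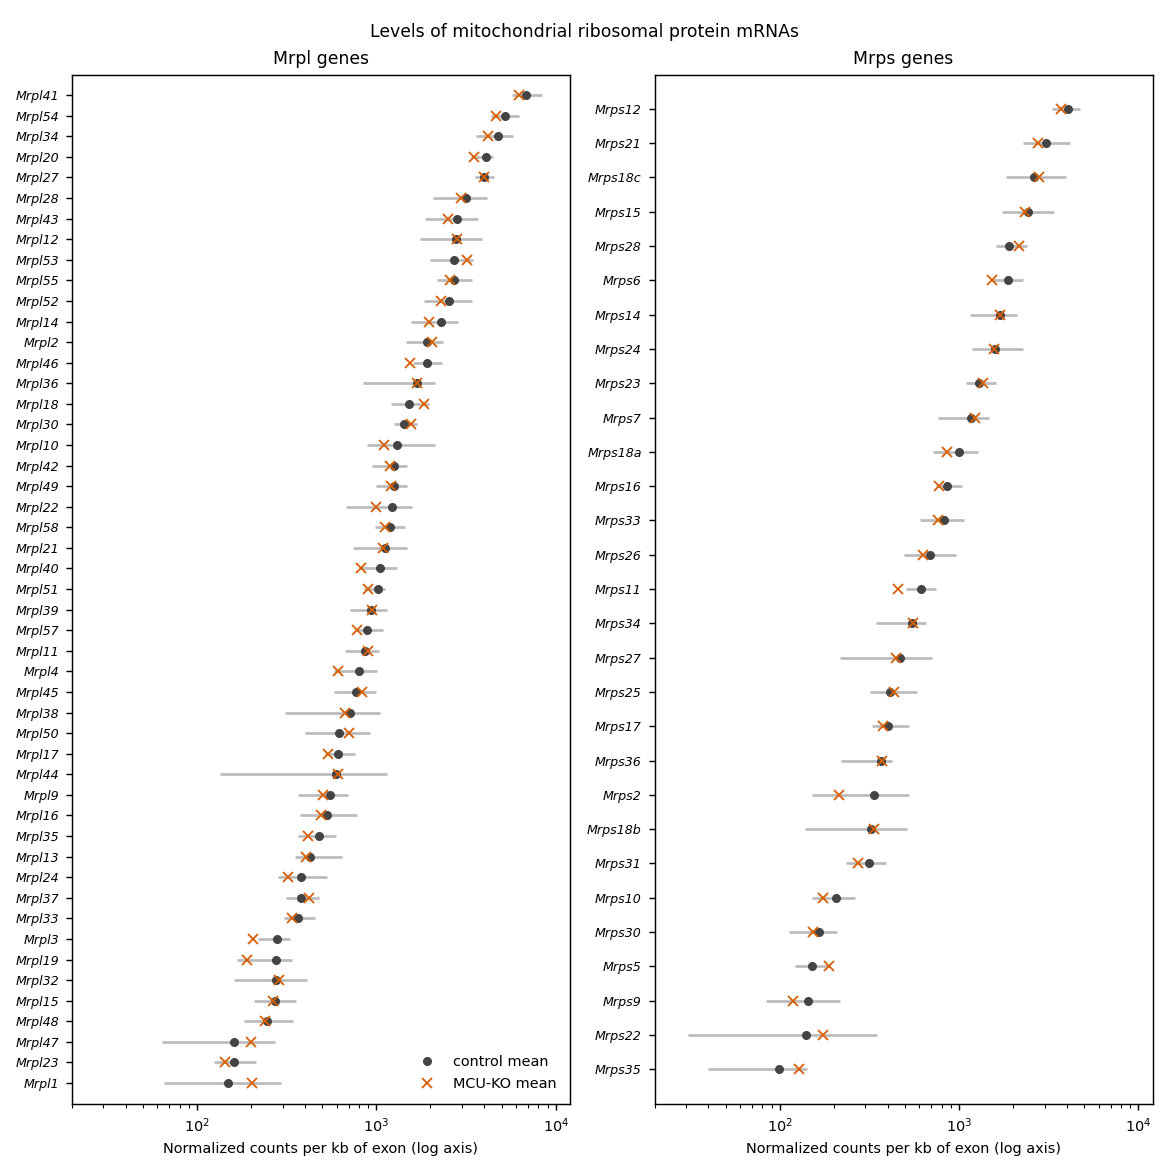
Mean normalized counts per kb of exon for each of the 49 Mrpl genes (left) and 29 Mrps genes (right), on a log axis. Dots are means of 8 control mice, grey lines run from the lowest to the highest control mouse, and crosses are means of 8 MCU-KO mice. The dots run from 99.0 for Mrps35 to 6859.6 for Mrpl41, and most crosses lie on or close to the dot of the same gene.

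By the SD over genes, the unevenness was similar to that of other multi-subunit machines, but between the quartiles it was larger. The SD of log2 levels per kb over the members was 1.47 in control and 1.46 in MCU-KO. It was 1.40 over 80 genes for proteins of the cytosolic ribosome and 1.46 over 37 genes for subunits of complex I, the first enzyme of the respiratory chain, against 2.39 over all genes tested. Genes of the cytosolic ribosome were taken by a symbol pattern that also admits paralogs such as Rpl22l1, the tagged protein. Their levels ran from 28.1 to 16263 normalized counts per kb in control. The quartiles spanned 4.80-fold over the members, 2.79-fold for the cytosolic ribosome and 3.90-fold for complex I. Without division by length, the SD over the members in control was 0.87. The levels themselves were lower than in both. The median per kb was 2519 for the cytosolic ribosome and 6772 for complex I in control. These values are descriptions without a test, and they depend on exon lengths from the annotation.

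The median level was higher over the genes of the large subunit than over those of the small one in every mouse. The median per kb over Mrpl genes was 843 in the lowest, 1009 in the median and 1117 in the highest control mouse. Over Mrps genes it was 586, 618 and 669. The lowest Mrpl median was thus above the highest Mrps median. The log2 ratio of both medians was 0.68 ± 0.13 in control (SD, n = 8), with a range from 0.45 to 0.86. In MCU-KO it was 0.67 ± 0.11 (SD, n = 8), with a range from 0.52 to 0.86, so the genotypes overlapped almost fully. Without division by length, the log2 ratio was 0.42 in control and 0.34 in MCU-KO.

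**Figure D2:**
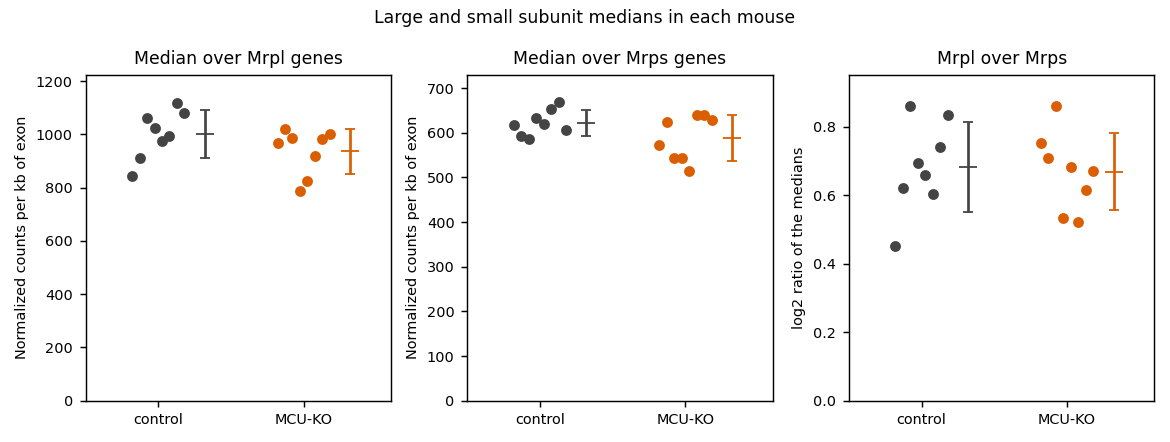
Median level per mouse over Mrpl genes and over Mrps genes (normalized counts per kb of exon), and the log2 ratio of the 2 medians. Each dot is 1 mouse, 8 per genotype, and the bars give the mean and SD. The ratio is above 0 in all 16 mice, and the genotypes overlap in each panel.

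The symbol does not always give the place in the ribosome. Mrps18a and Mrps30 carry small-subunit names but sit in the large subunit, and Mrps36 belongs to the α-ketoglutarate dehydrogenase complex of the TCA cycle and not to the ribosome. Their levels were 995 ± 189.7, 166 ± 34.6 and 366 ± 67.7 normalized counts per kb in control (SD, n = 8). Mrps18a is 1 of 3 paralogs, and the other 2, Mrps18b and Mrps18c, are proteins of the small subunit. Mrps18c was at 2629 ± 694 and Mrps18b at 322 ± 125. However, 22.9% and 30.2% of their 50-base stretches also occur in other genes, so both levels are uncertain to that extent. For Mrps36 this share was 17.3%. With these genes placed by structure, the log2 ratio of large over small was 0.54 in control.

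Within the large subunit, the 31 proteins with a bacterial counterpart and the 20 found only in mitochondria had similar median levels, 868 and 1033 normalized counts per kb in control. Within the small subunit, the median was 1377 over 16 proteins with a bacterial counterpart and 440.4 over 10 found only in mitochondria. Of the paralogs above, Mrps18a and Mrps18c were counted with a bacterial counterpart and Mrps18b as found only in mitochondria. The stalk, where translation factors dock, had a median of 2725 over 5 genes, from 868 for Mrpl11 to 5232 for Mrpl54. Between them were Mrpl10, which anchors the stalk, at 1307, Mrpl53 at 2725 and Mrpl12, which forms the tip of the stalk, at 2769.9. The 7 genes of the central protuberance, at the interface with the small subunit, had a median of 1520, and 7 genes around the exit of the peptide tunnel had 598. None of these differences between groups of proteins was tested.

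The genes themselves have features in common that the choice by symbol did not use. Of the 78 members, 32 (41.0%) have a protein-coding neighbour on the other strand whose annotated start lies within 1000 bases of their own, a head-to-head arrangement found in 15.5% of 12009 protein-coding genes tested. Mrps11 and Mrpl46 on chromosome 7, one from each subunit, are such a pair. Other partners have mitochondrial roles too, such as Ndufs6 of complex I beside Mrpl36, and Twnk, the helicase of mitochondrial DNA, beside Mrpl43. RefSeq promoters, from 250 bases before to 50 after the start, were matched for 69 members (75 promoters). Their median GC content was 58.7%, against 52.7% for all 32851 promoters in the table.

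Motifs were searched on both strands of these promoters. TGCGCA, part of the binding site of NRF1, a regulator of nuclear genes for mitochondria, was present in 29.3% of member promoters and 7.76% of all promoters. CCGGAAG, a site for ETS factors such as GABPA, was present in 34.7% and 8.86%. AAGATGGC, a site for YY1, was present in 16% and 2.75%. TATAAA, the TATA box, was in 6.67% of member promoters and 13.6% of all, and TGACGTCA, the site of CREB, in 2.67% and 1.79%. Among promoters of genes tested here, which were all expressed in these samples, the shares were 13.7% for TGCGCA, 16.8% for CCGGAAG, 4.37% for AAGATGGC, 6.89% for TATAAA and 3.10% for TGACGTCA. A match is a run of letters and not evidence of binding.

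The promoters of 4 members are shown, from RefSeq on GRCm38.p6, 5′ to 3′ on the strand of the gene, with capitals for matches to the NRF1, ETS and YY1 motifs only. Mrps11 and Mrpl46 are printed because their windows overlap on opposite strands, and they share 1 stretch of DNA between both genes. Mrps12, the counterpart of the bacterial decoding protein S12, is shown because it holds both an ETS and a YY1 motif. Mrps6, a small-subunit protein with a bacterial counterpart, is shown for its NRF1 motif. Mrps12 was chosen after its values were seen. The windows are chr7:78782881-78783180 (plus strand) for Mrps11, chr7:78783040-78783339 (minus strand) for Mrpl46, chr7:28741772-28742071 (minus strand) for Mrps12 and chr16:92058086-92058385 (plus strand) for Mrps6.
Mrps11: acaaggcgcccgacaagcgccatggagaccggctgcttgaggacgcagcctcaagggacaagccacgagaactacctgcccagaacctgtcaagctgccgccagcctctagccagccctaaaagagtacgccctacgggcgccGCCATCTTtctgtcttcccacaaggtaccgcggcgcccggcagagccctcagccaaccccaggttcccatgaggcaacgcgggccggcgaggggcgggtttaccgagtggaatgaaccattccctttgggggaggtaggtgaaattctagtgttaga
Mrpl46: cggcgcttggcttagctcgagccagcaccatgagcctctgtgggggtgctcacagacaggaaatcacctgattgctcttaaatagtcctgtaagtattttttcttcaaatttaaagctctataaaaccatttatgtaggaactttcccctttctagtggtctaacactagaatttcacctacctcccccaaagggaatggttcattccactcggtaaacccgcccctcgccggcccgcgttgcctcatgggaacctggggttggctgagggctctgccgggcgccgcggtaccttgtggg
Mrps12: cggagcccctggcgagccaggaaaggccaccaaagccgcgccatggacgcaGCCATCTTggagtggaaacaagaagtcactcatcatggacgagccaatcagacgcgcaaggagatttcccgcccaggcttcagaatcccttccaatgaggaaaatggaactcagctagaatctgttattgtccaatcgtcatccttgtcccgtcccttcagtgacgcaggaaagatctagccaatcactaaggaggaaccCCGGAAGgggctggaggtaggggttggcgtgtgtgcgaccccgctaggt
Mrps6: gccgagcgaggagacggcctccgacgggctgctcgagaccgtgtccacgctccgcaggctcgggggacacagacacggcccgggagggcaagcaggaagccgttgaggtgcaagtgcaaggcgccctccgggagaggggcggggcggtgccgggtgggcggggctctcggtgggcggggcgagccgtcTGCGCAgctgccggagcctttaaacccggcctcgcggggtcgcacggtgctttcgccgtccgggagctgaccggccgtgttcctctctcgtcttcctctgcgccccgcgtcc

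Mrps11 has a YY1 match, and the window of Mrpl46 holds none of these 3 motifs.

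Between the genotypes, no mitochondrial ribosomal protein gene passed the test. Of the 78 members, 0 had an adjusted p under 0.05 by the quasi-likelihood test of edgeR, adjusted after Benjamini and Hochberg over 12390 genes, and 0 by DESeq2. Over all genes, 22 passed in edgeR, 0.178% of those tested. The smallest adjusted p among the members was 0.849. Log2 fold changes, MCU-KO over control, ranged from -0.64 to 0.44, with a median of -0.09 against 0.00 over all genes tested. In MCU-KO, 52 members had a lower fitted level and 26 a higher one, and for 75 members the 95% confidence interval lay within 1 log2 unit of 0 in both directions. It lay within 0.5 log2 units for 48 members. The members together took 0.967 ± 0.059% of all counts in control and 0.919 ± 0.058% in MCU-KO (SD, n = 8), and the mice of both genotypes overlapped.

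**Figure D3:**
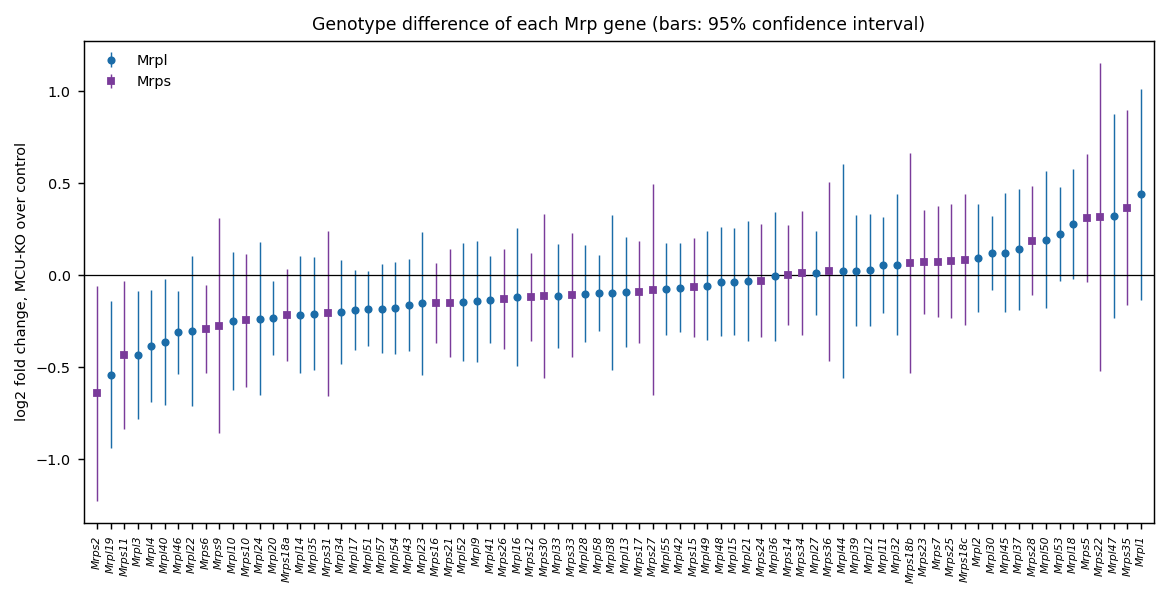
Log2 fold change of each of the 78 members, MCU-KO over control, from edgeR, in rising order. Circles are Mrpl and squares Mrps genes, and bars are 95% confidence intervals. The values run from -0.64 for Mrps2 to 0.44 for Mrpl1, 52 lie below 0, and Mrpl and Mrps genes are mixed along the order.

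Counted by group, most but not all sets of proteins had more members on the lower side. Among Mrpl genes, 34 of 49 had a lower fitted level in MCU-KO, with a median log2 fold change of -0.10, and among Mrps genes 18 of 29, with a median of -0.08. Of the proteins with a bacterial counterpart, 34 of 47 were on the lower side (median -0.11), and of those found only in mitochondria, 18 of 30 (median -0.07). The small-subunit proteins found only in mitochondria did not lean this way, with 4 of 10 on the lower side (median 0.04), nor did the genes at the tunnel exit, with 3 of 7 (median 0.02), or those of the stalk, with 2 of 5 (median 0.03). Of the genes of other complexes, 54 of the 80 for cytosolic ribosomal proteins had a lower fitted level (median -0.04), as did 29 of the 37 genes for complex I (median -0.06), against 49.6% of all genes tested. These counts are descriptions, since genes measured in the same libraries are not independent.

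An unadjusted p under 0.05 was found for 9 members, 6 of the large and 3 of the small subunit, all with lower values in MCU-KO. Over all genes tested, 4.41% had such a p, and 2.16% had it with lower values in MCU-KO, against 11.5% of the members. The 9 genes are Mrpl46, Mrpl19, Mrpl4, Mrpl3, Mrps6, Mrpl20, Mrps2, Mrps11 and Mrpl40. When each mouse was left out in turn, the number with lower values was between 6 and 12. It was 6 without control mouse 4 or MCU-KO mouse 2, and 12 without MCU-KO mouse 8. In these fits 0 to 2 members had such a p with higher values, and 6 to 9 of the 9 genes kept it. The median log2 fold change of the members was -0.05 without MCU-KO mouse 4. The genotypes overlapped in all 78 members, whereas they did not overlap in 0.258% of all genes tested.

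Mrpl46 (chr7:78775236-78783531, minus strand), a protein of the central protuberance, had the smallest p. Its normalized counts were 2250.0 in the lowest, 2564 in the median and 3279 in the highest control mouse, and 1976, 2167 and 2455 in MCU-KO. All 8 MCU-KO mice were below the control median, and 5 were below the lowest control. The log2 fold change was -0.31 (SE 0.11, adjusted p = 0.849 from edgeR). Its head-to-head partner Mrps11 (chr7:78783119-78792989, plus strand), a protein of the small subunit platform, had 1093, 1344 and 1610.1 in control and 625.4, 1053 and 1364 in MCU-KO. Of the MCU-KO mice, 4 were below the lowest control, and the log2 fold change was -0.43 (SE 0.19). The annotated exons of the pair overlap on opposite strands, with 9.22% of the 50-base stretches of Mrpl46 also found in Mrps11, and without strand in the counting such reads cannot be told apart. Their shared promoter DNA is printed above.

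Among the other large-subunit genes, Mrpl19 (chr6:81957851-81965958) had 908, 1619 and 1834 normalized counts in the lowest, median and highest control mouse. In MCU-KO the values were 660.4, 1033 and 1479.8, with all 8 mice below the control median, and the log2 fold change was -0.54 (SE 0.19). Of its 50-base stretches, 37.0% occur in another gene, mostly the neighbour Gcfc2, so its counts are uncertain to that extent. Mrpl4 (chr9:21002738-21008839), whose bacterial counterpart lies near the tunnel, had 1511, 2045 and 2647 in control and 1052, 1672 and 1866 in MCU-KO. Again all 8 MCU-KO mice were below the control median (log2 fold change -0.38, SE 0.15). Mrpl3 (chr9:105053239-105079888), a counterpart of a core bacterial protein of the large subunit, had 1457, 1963 and 2199 in control and 909.6, 1338 and 2114 in MCU-KO. Of the MCU-KO mice, 6 were below the lowest control, but 1 was close to the highest.

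Mrpl20 (chr4:155802878-155809975), among the most abundant and the most even over control mice, had 5619, 7046 and 7431 normalized counts in the lowest, median and highest control mouse and 4434, 6158 and 6811 in MCU-KO. All 8 MCU-KO mice were below the control median, with a log2 fold change of -0.23 (SE 0.10). Mrps6 (chr16:92058270-92112227), a protein of the small subunit platform, had 2289.9, 2931 and 3481 in control and 2029.6, 2316 and 2702 in MCU-KO, also with 8 of 8 below the control median. Its log2 fold change was -0.29 (SE 0.12), and 17.3% of its 50-base stretches also occur in another gene. Mrps2 (chr2:28468066-28471178), the counterpart of a bacterial protein of the small subunit, had the lowest log2 fold change, -0.64 (SE 0.28). Its values were also the most scattered of the 9 in both genotypes, at 440.3, 1026 and 1537 in control and 289.8, 584 and 1066 in MCU-KO. Mrpl40, the ninth gene, was named after its values were seen and had a log2 fold change of -0.36 (SE 0.16). For each of these genes the adjusted p was at least 0.849 with edgeR.

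**Figure D4:**
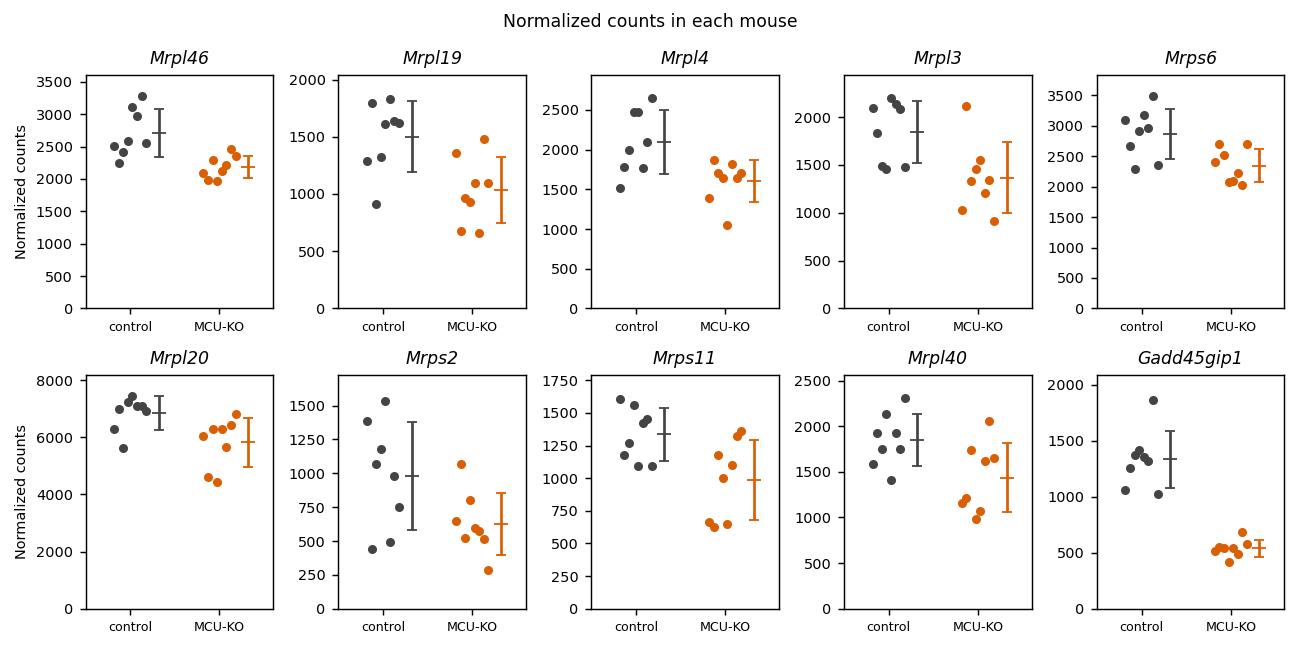
Normalized counts per mouse (8 control, 8 MCU-KO) of the 9 members with an unadjusted p under 0.05 and of Gadd45gip1, with axes from 0. Bars give the mean and SD. In the 9 members the genotypes overlap, whereas in Gadd45gip1 every MCU-KO mouse (420.0 to 683) lies below every control mouse (1023 to 1863).

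The stalk genes did not move together. Mrpl10 and Mrpl54 had log2 fold changes of -0.25 and -0.18, and Mrpl11, Mrpl12 and Mrpl53 had 0.06, 0.03 and 0.22, with none past the test (edgeR). For Mrpl53, 82.0% of the 50-base stretches also occur in the annotated transcript Gm42688, so its level is uncertain. The share of stretches found in other genes was 12.3% for Mrpl10. The most abundant genes, Mrpl41 and Mrpl34, had -0.13 and -0.20. The least abundant, Mrps35, Mrps22, Mrps9 and Mrpl1, had 0.37, 0.32, -0.27 and 0.44, with wide intervals, as in Mrps22 from -0.52 to 1.16. Mrps18a, Mrps18b, Mrps18c, Mrps30 and Mrps36 lay between -0.22 and 0.09. Mrpl44, a protein placed near the tunnel exit, is head to head with Wdfy1, a gene that passed the test. Wdfy1 had 1553 ± 297 normalized counts in control and 274 ± 189.8 in MCU-KO (SD, n = 8), a log2 fold change of -2.50 (adjusted p = 9.0e-04, edgeR), whereas that of Mrpl44 was 0.02 (SE 0.28). Wdfy1 was the only 1 of the 26 head-to-head partners tested that passed, where 0.178% of all genes tested did.

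The rest of mitochondrial translation was followed with lists of other ribosomal proteins, translation factors, aminoacyl-tRNA synthetases, assembly factors and factors that maintain mitochondrial mRNA. Of 78 genes in these 5 lists, 76 were tested. Against 0.178% of all genes tested, 1 of these 76 passed the test, with lower counts in MCU-KO. This gene was Gadd45gip1 (chr8:84831522-84835482, plus strand), which encodes a protein of the large mitochondrial subunit in spite of its name, and so belongs with the members by function. The lowest, median and highest control mice had 1023, 1338 and 1863 normalized counts, and the MCU-KO mice 420.0, 544 and 683. The genotypes did not overlap. The means were 1334 ± 258 and 539 ± 75.4 (SD, n = 8), and the log2 fold change was -1.31 (SE 0.17, 95% confidence interval -1.67 to -0.94, adjusted p = 2.07e-04, edgeR).

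Of the 50-base stretches in the transcripts of Gadd45gip1, 39.0% are not unique to it, so its counts are uncertain to that extent. Chromosome 8 held 7 of the 22 genes that passed, between 70483867 and 94154146 and Gadd45gip1 among them, whereas it held 5.46% of the genes tested. The only member in that stretch, Mrpl34, had a log2 fold change of -0.20 (SE 0.14). The part of position in the change of Gadd45gip1 was not tested.

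The other 4 ribosomal proteins without an Mrp name, Dap3, Ptcd3, Chchd1 and Aurkaip1, had log2 fold changes between -0.36 and 0.20. In each remaining list the gene with the smallest p did not pass. Gfm2, a factor that recycles mitochondrial ribosomes, had 483 ± 342 normalized counts in control and 251 ± 178 in MCU-KO (SD, n = 8). Lars2, the mitochondrial leucyl-tRNA synthetase, had 90659 ± 18266 and 133427 ± 56611, with an adjusted p of 0.794 (edgeR). This count stands far above the rest of its list, where Gars came next with 3374 in control. Whether all reads counted for Lars2 come from its mRNA was not tested. Trub2, a pseudouridine synthase, had 283 ± 147 and 504 ± 145, and Lrpprc, which stabilizes mitochondrial mRNA, had 1004 ± 369.6 and 742 ± 306. The 13 mRNAs of mitochondrial DNA, which the mitochondrial ribosome translates, were listed at 0 in every mouse, so its output could not be followed here.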

How the data were processed

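RNA was sequenced from RiboTag immunoprecipitates of 16 mice. Per the labels and the methods of the study, reads were trimmed (Trim Galore, cutadapt), aligned to mm10 with STAR and counted per gene with HTSeq on an Ensembl annotation. The authors deposited whole-number counts per Ensembl gene identifier, without normalization. Tool versions, strand setting and annotation release are not given in the sources used here.

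Symbols, coordinates and exon lengths came from GENCODE M21 (GRCm38), and 24991 identifiers had a symbol. The genotypes were compared with edgeR 4.0.16 in R 4.3.3 (filterByExpr, TMM, glmQLFit, glmQLFTest, Benjamini-Hochberg adjustment over 12390 genes, threshold 0.05). Normalized counts are counts divided by size factors of DESeq2 1.42.0. Levels of different genes were compared per kb of exon. A count of 3 corresponds to 0.136 to 0.212 CPM, which covers counting error only. The edgeR fit was tested on simulated data, with changes set in genes drawn from all those tested. At the adjusted threshold it recovered 13.4% of 1.5-fold, 23.9% of 2-fold and 59.1% of 4-fold changes. A gene that did not pass may therefore still differ. The median SE of the log2 fold change was 0.34 over all genes tested and 0.15 over the members. Recovery for the members alone was not simulated. Alternatives were DESeq2, other normalizations, filters and lengths, a replicate block, and the omission of each mouse.

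Members and lists were chosen with earlier results of these data known. Named genes are the 8 members with the smallest p, the 4 highest and 4 lowest per kb, the stalk genes, Mrps18a, Mrps18b, Mrps18c, Mrps30 and Mrps36, the 3 with the largest and the 3 with the smallest coefficient of variation, and the gene with the smallest p or any past the threshold in each other list. Shared sequence is the share of 50-base stretches of a gene's transcripts that occur in another gene on either strand. Tables were made with Python 3.11.15 and pandas 2.3.3. Some results are not reported here.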

Additional observations from a re-analysis of the deposited data

Results flagged for a closer look

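Within each group of 8 mice, single mice were compared with the others by Dixon's criterion, which chance alone meets in about 1 of 20 groups. Of 76 groups examined, 5 met it, where 3.8 would be met by chance. Mrpl1 had 1256 normalized counts in control mouse 7 and 281 to 670.1 in the other controls. Mrpl41 had 7634 in MCU-KO mouse 7 and 4606 to 5897 in the other MCU-KO mice. Gadd45gip1 had 1863 in control mouse 7 and 1023 to 1420.0 in the other controls, and without this mouse its adjusted p was 8.4e-04 (edgeR). Gfm2 had 632 in MCU-KO mouse 2 and 1.94 to 298 in the others. The library total of MCU-KO mouse 8 was 14129527, against 19897268 to 20582204 in the others.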

How the results depend on the processing

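The count of 0 members past the adjusted threshold held in all 23 settings, as did the call of Gadd45gip1, with an adjusted p between 2.39e-13 (DESeq2) and 0.00808 (replicate block). Of 828 comparisons with an alternative, 822 stayed on the same side of the threshold or within the spread, 0 reversed and 6 moved. For a single gene, a change of sign was counted as reversed only if the gene passed the threshold in either fit. Other changes of sign were counted as unchanged. The single genes followed, other than Gadd45gip1, passed in no setting, so each was counted as unchanged whatever its size. The alternative of all members with a count repeats the main values by construction, since every member passed the filter. The log2 ratio of large over small subunit was 0.54 in control with the longest transcript as the length, 0.54 with genes placed by structure, and 0.42 without division by length, which gave 0.34 in MCU-KO. The spread of log2 levels was 1.39 with the longest transcript and 0.87 without division by length. With 1 mouse left out, the median log2 fold change of the members lay between -0.10 and -0.05, and 46 to 56 members were lower in MCU-KO.

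With the mouse number as a replicate block, 7 members had an unadjusted p under 0.05, 0 passed the adjusted threshold, their median log2 fold change was -0.08, and 14 genes passed over all genes in place of 22. The numbers do not pair the mice: correlations of same-numbered deviations were -0.06 to 0.03, and 0 libraries were most like their own number. With DESeq2, 90 genes passed over all genes. The interval of Mrps22, from -0.52 to 1.16, was the widest among the members named, beside a coefficient of variation of 73.1% over control mice and at least 126 raw counts in every mouse.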
